A study of Mus musculus with 2 samples.

Results

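Transcription factor genes known for driving epithelial-mesenchymal transition (EMT) were followed in single cells of mouse inter-limb somites. They are Snai1, Snai2, Zeb1, Zeb2, Twist1, Twist2, Prrx1 and Prrx2, taken by symbol, and these 8 genes are each 1 row among the 27998 genes of the count tables. The somites came from wild-type C57BL/6 embryos at embryonic day 9.5 (E9.5) or 11.5 (E11.5), with no transgene and no treatment. Somites of 3 embryos were pooled at each stage into 1 10x Chromium library, so stage, pool and library cannot be told apart. Cells with at least 200 and fewer than 6500 genes and under 15% mitochondrial UMIs (unique molecular identifiers) were kept and sorted into classes by a few marker genes, none of which is one of the 8 factors.

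In an epithelial-mesenchymal transition, cells joined in a sheet lose their junctions and become motile. The ventral wall of a somite does this early and becomes the sclerotome, the source of vertebrae and ribs, while the dorsal dermomyotome stays epithelial for longer and gives skeletal muscle and dermis. Neural crest cells leave the dorsal neural tube by a similar transition. Snai1 and Snai2 encode zinc finger repressors that bind the E-box CACCTG in genes such as Cdh1, which encodes E-cadherin. Zeb1 and Zeb2 encode larger zinc finger and homeodomain proteins that bind the same kind of E-box. Twist1 and Twist2 encode basic helix-loop-helix (bHLH) proteins that pair with E proteins, and Prrx1 and Prrx2 encode paired-type homeodomain proteins of the mesenchyme of limb and face.

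The E9.5 library held 10121 barcodes, of which 9851 passed, and the E11.5 library 10167, of which 9595 passed. Median depth was 12462 and 12479 UMIs per cell, and 30 barcodes occurred in both libraries. A level is given in UPM, the UMIs of a gene per 1000000 UMIs of all cells of a class together. With 1 library per stage there is no replicate and no test, and every 95% interval below covers counting error only. Genes enter a comparison when the pair of classes holds 50 UMIs of them or more, and beside each count of factors past 2-fold stands the share of all genes compared that were past it in either direction.

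The gates gave 583 dermomyotome cells at E9.5 and 158 at E11.5 (Pax3 or Pax7, with no myogenic factor), 146 and 507 myoblasts (Myf5 or Myod1, with at most 1 Myog UMI) and 19 and 522 myocytes (Myog with sarcomere genes). They gave 1229 and 1591 sclerotome cells (Pax1 or Pax9), 475 and 248 crest cells (Sox10 with another crest gene) and 1394 and 99 neural tube cells (at least 3 of Sox1, Sox2, Sox3, Pax6 and Hes5). Fewer than 50 myocytes were found at E9.5, so their levels enter no comparison. The dermal gate, En1 with Pdgfra, held 466 cells at E11.5 and 0 at E9.5, where all barcodes of the library together held 13 En1 UMIs. Of 5 dermal markers outside that gate 0 were highest in it, and Dpt, a gene of fibroblast matrix, stood at 0.151 UPM, so these cells are called En1+ Pdgfra+ cells here and dermal only in the plots. Marker genes outside the gate of their own class were highest in it for 5 of 5 in myocytes, for 5 of 5 and 4 of 5 in neural tube at E9.5 and E11.5, and for 3 of 5 in crest at both stages. The dermomyotome gate led for 2 of 5 at both stages, the sclerotome gate for 1 of 5 and 3 of 5, and the myoblast gate for 3 of 5 and 1 of 5. Meox1, highest in sclerotome at E11.5, and Dmrt2, highest in myoblasts at E9.5, are counted among these but serve in the dermomyotome gate. Those counts are thus not independent of the gates. Nkx3-2, a regulator of vertebral cartilage, was the 1 sclerotome marker highest in its own gate at E9.5 and among the 3 at E11.5. It stood at only 0.608 and 0.854 UPM in sclerotome cells. At E9.5 Sox9 was higher in crest, Uncx in dermomyotome, and Foxc2 and Meox1 in newly formed somite cells (defined below).

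Background was read from red blood cells, which should lack these factors. Of the 8 genes, 7 stood between 1.19 and 11.3 UPM in them at E9.5 and between 0.914 and 7.77 UPM at E11.5. The eighth, Zeb2, stood at 23.2 and 29.7 UPM there. In the 82 epithelial cells of E9.5 it stood at 7.25 UPM (3.75 to 12.7), so the red blood level of Zeb2 is not one that all classes share and is not used as a background. Cdh1 was nearly absent from every somitic class: dermomyotome cells held 0 Cdh1 UMIs at both stages, and sclerotome cells held 2 at each. Cdh2, the gene of N-cadherin, stood at 96.3 and 88.8 UPM in dermomyotome and at 62.1 and 63.0 UPM in sclerotome. Epcam, another adhesion gene of epithelia, was at 0.953 UPM in E9.5 dermomyotome and 12.8 UPM at E11.5.

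Upstream sequences are shown for Snai1, Twist1 and Twist2, the 3 factors past 2-fold higher in E9.5 sclerotome than in dermomyotome. They are the 250 bases before the start site in RefSeq on GRCm38.p6, matched for 6 of the 8 genes, and are printed 5′ to 3′ with any E-box (CANNTG, both strands) in capitals.
Snai1 (chr2:167537945-167538194, plus strand): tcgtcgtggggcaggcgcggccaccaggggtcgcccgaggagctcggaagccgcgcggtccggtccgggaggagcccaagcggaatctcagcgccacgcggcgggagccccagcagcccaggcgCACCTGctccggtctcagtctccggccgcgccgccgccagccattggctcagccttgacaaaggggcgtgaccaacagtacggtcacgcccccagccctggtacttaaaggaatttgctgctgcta
Twist1 (chr12:33957421-33957670, plus strand): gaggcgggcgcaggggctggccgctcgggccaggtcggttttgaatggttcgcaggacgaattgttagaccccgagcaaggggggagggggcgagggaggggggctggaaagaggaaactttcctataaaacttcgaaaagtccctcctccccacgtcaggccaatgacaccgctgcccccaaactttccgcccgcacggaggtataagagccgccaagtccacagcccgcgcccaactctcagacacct
Twist2 (chr1:91801211-91801460, plus strand): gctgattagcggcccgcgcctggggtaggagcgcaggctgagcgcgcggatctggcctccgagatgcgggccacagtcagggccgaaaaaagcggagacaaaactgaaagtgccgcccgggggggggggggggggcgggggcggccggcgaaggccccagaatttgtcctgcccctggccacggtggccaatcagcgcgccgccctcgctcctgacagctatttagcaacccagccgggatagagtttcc
Snai1 held 1 E-box, CACCTG, the form that Snail and Zeb proteins bind, and no CANNTG lay in the other windows shown. Over 32851 such windows of 27025 genes, 66.2% held a CANNTG and 17.2% held CACCTG or its complement CAGGTG, which are among the CANNTG matches. A match describes letters and is not a site, and a window without one says nothing of sequence elsewhere.

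**Figure D1:**
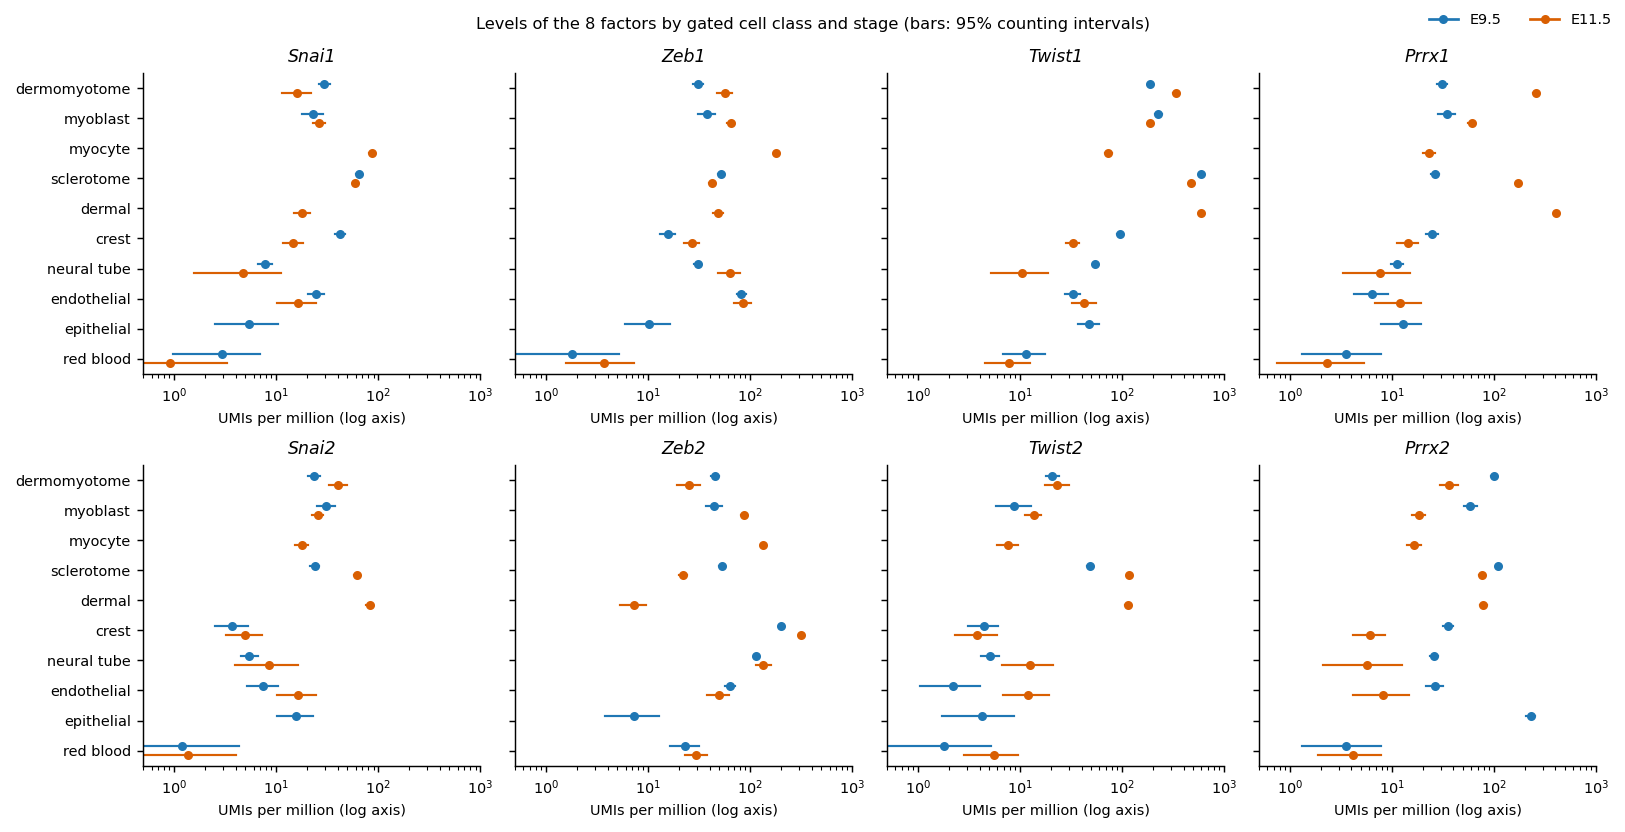
Level of each factor in UMIs per 1000000 (UPM) on a log axis, by gated cell class and stage. Points are sums over all cells of a class with at least 50 cells (dermal: En1+ Pdgfra+ cells), bars are 95% counting intervals, blue is E9.5 and orange is E11.5. Snai1 and Zeb1 are highest in E11.5 myocytes, Zeb2 in crest, and Twist1, Twist2 and Prrx1 in sclerotome or En1+ Pdgfra+ cells.

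Of the main classes, Snai1 was highest in sclerotome at E9.5 and in myocytes at E11.5. Snai1 (chr2:167538195-167542814 on GRCm38, plus strand) stood at 64.6 UPM in E9.5 sclerotome (95% interval 60.8 to 68.6), 42.3 in crest, 29.8 in dermomyotome, 23.0 in myoblasts and 7.78 in neural tube. Only the dermomyotome and myoblast intervals overlapped. At E11.5 Snai1 stood at 87.8 UPM in myocytes (82.1 to 93.9), 59.6 in sclerotome, 26.3 in myoblasts, 18.1 in En1+ Pdgfra+ cells, 16.0 in dermomyotome, 14.7 in crest and 4.77 in neural tube. Myocytes and sclerotome stood clear of each other and of the rest, while the En1+ Pdgfra+, dermomyotome and crest values overlapped in turn. Outside these classes Snai1 stood at 54.6 UPM in the 129 newly formed somite cells of E9.5 (Tcf15 with a Ripply1, Ripply2, Mesp2 or Cer1 UMI) and at 83.4 UPM (60.9 to 112) in 55 lateral plate cells of E11.5, an interval that overlaps that of myocytes.

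The second Snail gene had another order. Snai2 (chr16:14705852-14709385, plus strand) stood between 23.5 and 30.8 UPM in E9.5 dermomyotome, sclerotome and myoblasts, whose intervals overlapped, and at 5.48 and 3.71 UPM in neural tube and crest. At E11.5 it stood at 82.4 UPM in En1+ Pdgfra+ cells (75.7 to 89.6), 61.9 in sclerotome (58.6 to 65.4), 40.8 in dermomyotome, 25.6 in myoblasts, 17.7 in myocytes, 8.58 in neural tube and 4.95 in crest. Of the main classes Snai2 was thus lowest in crest and neural tube at both stages. Red blood cells held it at 1.19 UPM (0.144 to 4.30) at E9.5, an interval that overlaps that of crest (2.54 to 5.24) and not that of neural tube (4.52 to 6.58). Without cells that the program Scrublet marks as doublets, E9.5 neural tube stood at 2.48 UPM (1.79 to 3.35). Without cells holding a Meox1, Tcf15, Pax1 or Pax9 UMI it stood at 2.23 UPM (1.52 to 3.14). Both of these overlap the red blood interval. At E11.5 red blood cells held 1.37 UPM (0.283 to 4.01), which overlaps both crest (3.23 to 7.25) and neural tube (3.92 to 16.3). In cells thinned to 5000 UMIs each, 1.48% of E9.5 crest cells and 1.63% of E11.5 crest cells held a Snai2 UMI, as did 1.91% and 2.20% of neural tube cells, against 0.971% and 0.847% of red blood cells.

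The Zeb genes were highest in E11.5 myocytes (Zeb1) and in crest at both stages (Zeb2). Zeb1 (chr18:5591860-5775467, plus strand) stood at 51.6 UPM in E9.5 sclerotome (48.2 to 55.2), at 37.6, 31.0 and 30.6 in myoblasts, dermomyotome and neural tube, which overlapped, and at 15.6 in crest. At E11.5 myocytes held 181 UPM (173 to 190), and the 5 classes from myoblasts (64.7) through neural tube, dermomyotome and En1+ Pdgfra+ cells to sclerotome (41.9) overlapped with their neighbours, with crest below them at 26.7. Outside the main classes endothelial cells held Zeb1 at 81.9 and 84.3 UPM at E9.5 and E11.5. Zeb2 (chr2:44983632-45117395, minus strand) stood at 200.1 UPM in E9.5 crest (191 to 209.7), 113 in neural tube, 53.0 in sclerotome, 45.2 in dermomyotome and 44.5 in myoblasts, and the last 3 overlapped. At E11.5 it stood at 316 UPM in crest (301 to 332), 134 in both neural tube and myocytes, 87.1 in myoblasts, 25.2 in dermomyotome, 21.9 in sclerotome and 7.23 in En1+ Pdgfra+ cells. The dermomyotome and sclerotome levels lie near the 29.7 UPM (22.9 to 37.9) of E11.5 red blood cells, and the En1+ Pdgfra+ level below it. That red blood level is not used as a background, as said above.

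The Twist genes were highest in sclerotome and in En1+ Pdgfra+ cells. Twist1 (chr12:33957671-33959829, plus strand) stood at 592 UPM in E9.5 sclerotome (580.0 to 604), 227 in myoblasts, 189 in dermomyotome, 96.0 in crest and 54.7 in neural tube, with no overlap. At E11.5 it stood at 592 UPM in En1+ Pdgfra+ cells (574 to 611), 471 in sclerotome, 334 in dermomyotome, 188 in myoblasts, 73.3 in myocytes, 32.7 in crest and 10.5 in neural tube, again with no overlap. Among thinned E9.5 sclerotome cells 92.3% held a Twist1 UMI (90.7 to 93.8), against 4.85% of red blood cells. Twist2 (chr1:91801461-91848028, plus strand) stood at 48.5 UPM in E9.5 sclerotome (45.2 to 52.0), 20.8 in dermomyotome, 8.76 in myoblasts, 5.09 in neural tube and 4.40 in crest, of which the last 3 overlapped. At E11.5 sclerotome and En1+ Pdgfra+ cells held 116 and 114.5 UPM with overlapping intervals, dermomyotome 23.2, and the other 4 classes between 3.81 and 13.6.

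The Prrx paralogs were ordered differently at the 2 stages. Prrx1 (chr1:163245119-163313710, minus strand) stood between 24.8 and 34.4 UPM in E9.5 myoblasts, dermomyotome, sclerotome and crest, whose neighbours overlapped, and at 11.2 in neural tube. At E11.5 it stood at 408 UPM in En1+ Pdgfra+ cells (393 to 424), 258 in dermomyotome (238 to 279), 171 in sclerotome (165 to 176), 60.3 in myoblasts, 23.2 in myocytes, 14.3 in crest and 7.63 in neural tube, and overlap was seen only between crest and neural tube. Prrx2 (chr2:30834972-30881251, plus strand) stood at 108 UPM in E9.5 sclerotome and 98.8 in dermomyotome, which overlapped, then at 58.7 in myoblasts, 35.1 in crest and 25.8 in neural tube. At E11.5 En1+ Pdgfra+ cells and sclerotome held 78.7 and 75.3 UPM with overlapping intervals, dermomyotome 36.4, myoblasts and myocytes 18.2 and 16.5, and crest and neural tube 6.09 and 5.72. Prrx2 was also high in 82 epithelial cells of E9.5, gated by Cdh1, Epcam and a keratin, at 229 UPM (207 to 253), where 5 of 5 epithelial markers outside the gate were highest and 9.76% were Scrublet calls, cells that the program Scrublet marks as doublets. In lateral plate cells, of which some form limb mesenchyme, Prrx1 and Prrx2 stood at 88.6 and 189 UPM at E9.5.

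The first question of the design is how the classes differ between the stages. Prrx1 was the member with the widest difference, 8.34-fold higher in E11.5 than in E9.5 dermomyotome and 6.50-fold higher in sclerotome. In dermomyotome, 292 Prrx1 UMIs in 583 cells stood against 645 in 158 cells, a log2 ratio of 3.06 (2.86 to 3.26). The E11.5 dermomyotome gate held a mix of cells, described below, and the part of that mix in this ratio was not tested. Its paralog Prrx2 went the other way there, at 98.8 against 36.4 UPM, a log2 ratio of -1.44 (-1.77 to -1.13). Prrx1 and Prrx2 were the 2 of 8 factors past 2-fold in dermomyotome, where 16.3% of the 9473 genes compared were. The other 6 lay within 2-fold, from -0.90 for Snai1 to 0.86 for Zeb1. Mesenchymal genes were higher in the E11.5 dermomyotome in 10 of the 14 measured, with none lower, where 10.8% of all genes compared were higher. Among them Postn, a matrix protein of mesenchyme, had a log2 ratio of 8.07 on 6 UMIs at E9.5. Sparc had 4.90 and Col1a1, a chain of type I collagen, 4.40. This was not particular to dermomyotome. Mesenchymal genes were also higher at E11.5 in 9 of 14 in crest, with 1 lower, in 6 of 14 in myoblasts and in 4 of 13 in neural tube. Of the other transition factors Foxc2 and Foxc1, forkhead genes of somite mesoderm, had log2 ratios of -5.96 and -2.33, the former on 3 UMIs at E11.5. Sox9 was higher there, at 1.84.

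**Figure D2:**
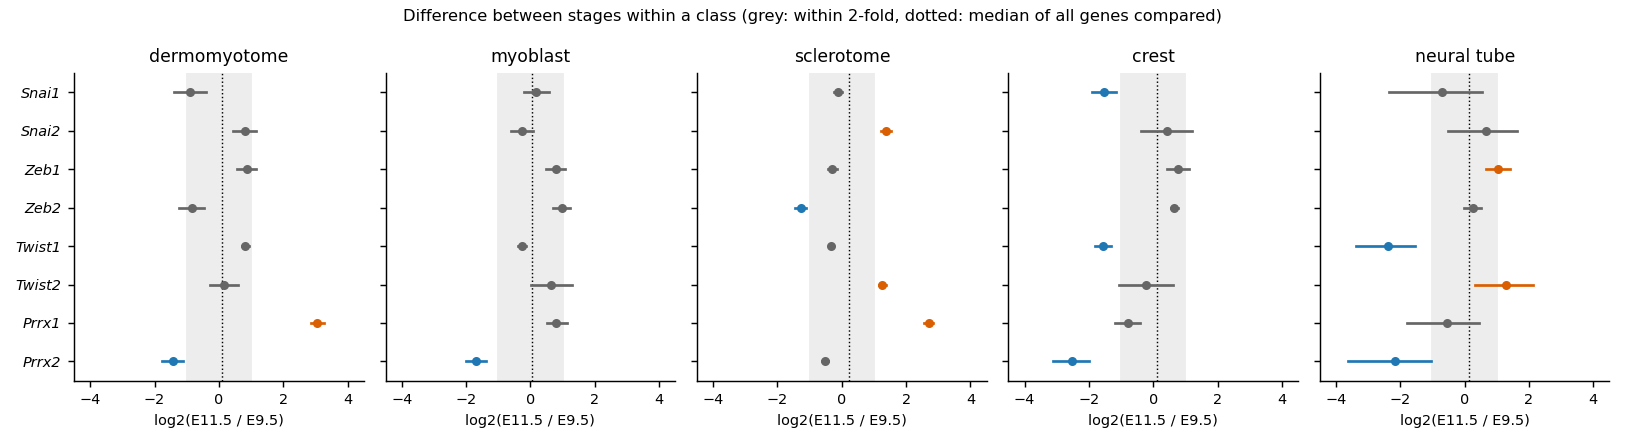
Log2 ratio of E11.5 over E9.5 for each factor within 5 classes, with 95% counting intervals. The grey band is within 2-fold, orange and blue points are past 2-fold higher and lower, and the dotted line is the median of all genes compared. Prrx1 is past 2-fold higher in dermomyotome and sclerotome, and Prrx2 is past 2-fold lower in 4 of the 5 classes.

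In sclerotome 4 of 8 factors were past 2-fold, against 20.8% of 11584 genes, whose median stood at a log2 ratio of 0.22. Prrx1 stood at 26.2 and 171 UPM (log2 ratio 2.70, interval 2.56 to 2.85), Snai2 at 23.9 and 61.9 UPM (1.37, 1.21 to 1.54) and Twist2 at 48.5 and 116 UPM (1.26, 1.14 to 1.38). Zeb2 was lower, at 53.0 against 21.9 UPM (-1.28, -1.44 to -1.11). Snai1 and Twist1 differed little, with log2 ratios of -0.12 and -0.33, so within each of these pairs of paralogs Snai2 and Twist2 were the ones past 2-fold. Upstream signals were higher at E11.5 in 7 of 12 measured and lower in 2, and Tgfb2, a ligand known to induce Snail and Zeb genes, had a log2 ratio of 3.74. Tgfb2 was also higher at E11.5 in dermomyotome (3.94), crest (3.37), myoblasts (3.36) and neural tube (2.52), and a link to the factors was not tested. Of the mesenchymal genes 8 of 14 were higher and none lower. Id genes encode inhibitors that bind E proteins, the partners of Twist proteins, and Id3 and Id4 had log2 ratios of 1.87 and 3.99.

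In myoblasts only Prrx2 was past 2-fold of 8, against 14.6% of 9749 genes, at 58.7 and 18.2 UPM, a log2 ratio of -1.69. Zeb2 lay just inside the limit, at 44.5 and 87.1 UPM (0.97, 0.71 to 1.24). Without Scrublet calls Zeb2 also passed 2-fold, at 1.06. Prrx2 was lower at E11.5 in each of the 5 classes compared, and in 4 of them past 2-fold, with sclerotome at -0.52 the exception.

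In crest 3 of 8 factors were past 2-fold and all 3 lower, against 17.0% of 9880 genes, most of them higher. Snai1 stood at 42.3 UPM at E9.5 and 14.7 at E11.5 (log2 ratio -1.53, -1.90 to -1.17), Twist1 at 96.0 and 32.7 (-1.55, -1.80 to -1.31) and Prrx2 at 35.1 and 6.09, a log2 ratio of -2.53. Zeb2 was 1.58-fold higher at E11.5 and Zeb1 1.70-fold higher. Sox9, a factor of migrating crest and cartilage, was lower with a log2 ratio of -2.73, and Wnt1, a signal of the dorsal neural tube, had 131 UMIs in E9.5 crest cells and 0 at E11.5. In neural tube 4 of 8 were past 2-fold, against 19.5% of 10410 genes. Zeb1 and Twist2 were higher (log2 ratios 1.04 and 1.28), and Twist1 and Prrx2 lower (-2.38 and -2.17), but Twist1, Twist2 and Prrx2 had 11, 13 and 6 UMIs in the 99 neural tube cells of E11.5. With a mean over cells Twist2 was within 2-fold, at 0.98, and Twist1 was at -1.02 with no filter on cells and -3.19 without Scrublet calls. Leaving out Scrublet calls put Twist2 at 3.12 UPM on 3 UMIs at E11.5 and 2.42 UPM on 41 UMIs at E9.5. Those are too few UMIs for a comparison.

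Inside the crest and neural tube gates, cells with a Twist1 UMI also held more somite gene UMIs. Scrublet called 11.4% of E9.5 neural tube cells doublets, and 54.9% of the 153 thinned ones with a Twist1 UMI, against 6.19% of the 1211 without. Those 153 cells also held Meox1 and Tcf15, factors of the somite, at 165 and 116 UPM, against 23.6 and 16.0 UPM, and Sox2, a neural factor, at 176 against 334 UPM. In E9.5 crest the 96 cells with a Twist1 UMI held Meox1 at 254 UPM and Prrx1 at 70.6 UPM, against 62.3 and 9.46 UPM in the 376 cells without, and 20.8% against 6.65% were Scrublet calls. These splits, and the cells left out next, were chosen after the data were seen.

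Leaving out all crest and neural tube cells with a Meox1, Tcf15, Pax1 or Pax9 UMI kept 246 of 475 crest cells at E9.5 and 1087 of 1394 neural tube cells. Snai1 then stood at 34.5 UPM in crest (29.0 to 40.8) and 1.74 in neural tube, and Zeb2 at 195 and 124 UPM. Twist1 stood at 11.1 UPM in that crest in place of 96.0, and Prrx1 at 2.52 in place of 24.8. Both levels lay within the range of red blood levels given above for the factors other than Zeb2. The stage ratio of Twist1 in crest turned to 0.46, while those of Snai1 and Prrx2 were -1.65 and -1.99. The Twist1 intervals of these crest cells overlapped, 8.05 to 14.9 UPM at E9.5 and 11.7 to 19.4 UPM at E11.5, so 0.46 gives no clear direction. Prrx1 in crest, at 24.8 and 14.3 UPM in all cells, stood at 2.52 UPM on 10 UMIs and 6.54 UPM on 28. That is the opposite order, but on too few UMIs for a comparison. The intervals overlapped (1.21 to 4.63 and 4.35 to 9.46), and both levels lay within the red blood range of their stage. Without Scrublet calls the Twist1 ratio was -2.51. In neural tube Twist1 stood at 13.2 in place of 54.7 UPM at E9.5. The part of doublets or free RNA in these values was not tested.

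**Figure D3:**
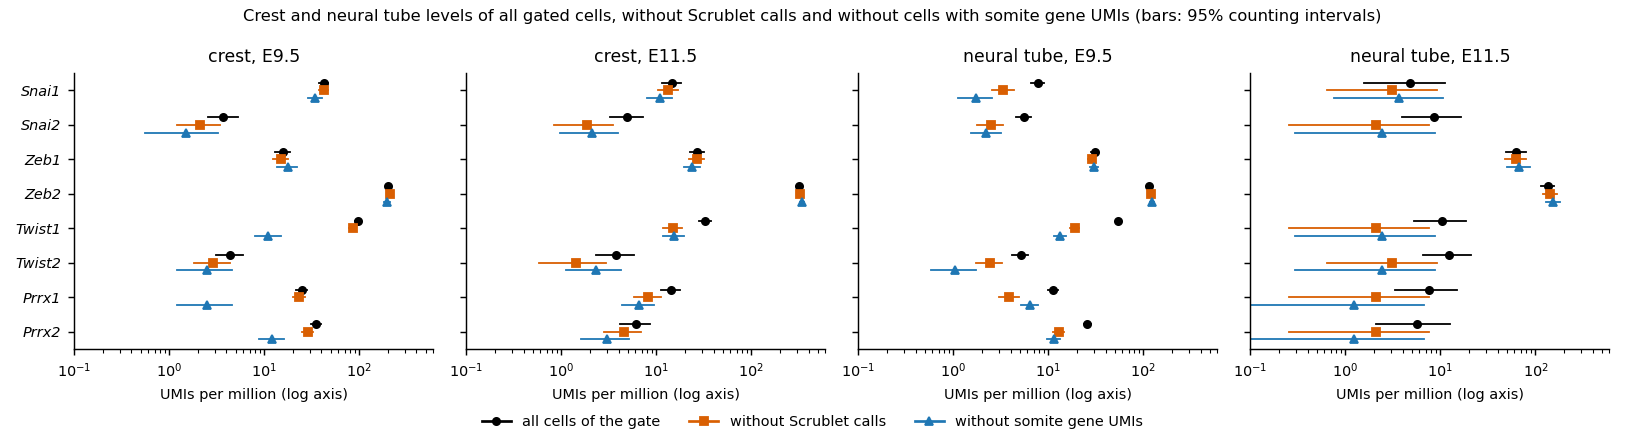
Levels of the 8 factors in crest and neural tube gated cells on a log axis of UMIs per 1000000, for all cells, without Scrublet calls and without cells that hold a Meox1, Tcf15, Pax1 or Pax9 UMI. Bars are 95% counting intervals. In E9.5 crest Zeb2 lies between 195 and 210.1 UPM in the 3 sets, while Twist1 is at 96.0, 85.1 and 11.1 UPM.

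The second question is how crest differs from the neural tube it leaves. At E9.5 Snai1 was 5.44-fold higher in crest (42.3 against 7.78 UPM, log2 ratio 2.44, 2.17 to 2.72) and Prrx1 2.22-fold, and these were the 2 of 8 past 2-fold, against 10.3% of 10803 genes. Without cells holding somite gene UMIs Snai1 had a log2 ratio of 4.31, Prrx1 of -1.35, Twist1 of -0.25 (0.81 in all cells) and Prrx2 of 0.09 (0.45 in all cells). Without Scrublet calls Twist1 (2.17) and Prrx2 (1.17) passed as well, which made 4, with Snai1 at 3.65 and Prrx1 at 2.58. For Prrx1 these sets of cells thus differ in direction. For Twist1 the set without somite gene UMIs had overlapping intervals in crest (8.05 to 14.9 UPM) and neural tube (11.3 to 15.2 UPM), and so no clear direction. Zeb2 was 1.77-fold higher in crest and Zeb1 1.96-fold lower. Ets1, a factor of crest delamination, and Sox9 had log2 ratios of 3.92 and 3.17, and Col1a2, a chain of type I collagen, 2.07. At E11.5, 5 of the 8 reached 50 UMIs and 4 were past 2-fold, against 15.7% of 8666 genes. Snai1, Twist1 and Zeb2 were higher in crest (1.62, 1.64 and 1.23) and Zeb1 lower (-1.24), with 5 Snai1 and 11 Twist1 UMIs in the neural tube cells. The neural tube interval of Snai1, 1.55 to 11.1 UPM, overlapped that of E11.5 red blood cells, 0.111 to 3.30 UPM. With no filter on cells Snai1 and Twist1 were within 2-fold, at 0.74 and 0.60, and without Scrublet calls Twist1 was at 2.85. Mesenchymal genes were higher in crest in 7 of 12 measured, led by Postn, and lower in 1.

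The third question is how the mesenchymal derivatives of the somite differ from the dermomyotome. At E9.5 sclerotome was higher in 3 of 8 factors, against 4.48% of 10417 genes: Twist1 at 592 against 189 UPM (log2 ratio 1.65, 1.57 to 1.72), Twist2 at 48.5 against 20.8 UPM (1.22, 1.00 to 1.46) and Snai1 at 64.6 against 29.8 UPM (1.12, 0.93 to 1.31). With stricter gates Snai1 was just within 2-fold, at 0.99. Snai2, Prrx1 and Prrx2 lay at 0.03, -0.24 and 0.13. Mesenchymal genes were higher in 6 of 13 measured, with Col3a1, Cdh11 and Col1a1 at 3.25, 2.24 and 1.98. Cdh2 and Vim, both counted as mesenchymal genes, were not higher, at -0.63 and -0.22. Id2 and Id3 were lower in sclerotome, at -2.12 and -1.76. At E11.5 sclerotome was again higher in 3 of 8, against 7.62% of 11134 genes: Twist2 (2.32), Snai1 (1.90) and Prrx2 (1.05), while Twist1 stood at 471 against 334 UPM (0.50) and Prrx1 was lower at 171 against 258 UPM (-0.60). Only 1 of 14 mesenchymal genes was then higher in sclerotome, Cdh11 (1.10), and 1 lower, Postn (-3.54). Foxc1 and Foxc2 were higher at 3.39 and 5.69, the latter on 3 UMIs in dermomyotome. The part of the mix of cells in the E11.5 dermomyotome gate, described below, was not tested in these ratios.

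En1+ Pdgfra+ cells of E11.5 differed from dermomyotome past 2-fold in 4 of 8 factors, against 3.50% of 9425 genes. The dermomyotome gate does not exclude En1 or Pdgfra, and part of its cells also held these genes. Twist2 (114.5 against 23.2 UPM, log2 ratio 2.30, 1.92 to 2.72), Prrx2 (78.7 against 36.4, 1.11) and Snai2 (82.4 against 40.8, 1.02) were higher, and Zeb2 (7.23 against 25.2, -1.80) was lower, on 48 and 63 UMIs. With stricter gates the Zeb2 ratio was -2.46. Prrx1 and Twist1 were 1.58-fold and 1.77-fold higher, and with stricter gates Prrx1 passed 2-fold, at 1.08. Of 14 mesenchymal genes 1 was higher, Pdgfra, which the gate itself used, and 1 lower, Postn. Lef1, a nuclear mediator of Wnt signals, and Bmp4 were higher with log2 ratios of 2.12 and 1.32. E proteins, Id proteins and corepressors of Snail and Zeb proteins, 14 measured of 15 listed, were all within 2-fold.

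The fourth question is how the factors differ along the muscle lineage. At E9.5 myoblasts and dermomyotome differed in 1 of 8, Twist2 at 8.76 against 20.8 UPM (log2 ratio -1.24, -1.88 to -0.66), against 1.49% of 9287 genes. At E11.5, 2 of 8 were past 2-fold, against 4.36% of 9763 genes. Zeb2 was 3.46-fold higher in myoblasts, at 87.1 against 25.2 UPM (1.79, 1.42 to 2.18), and Prrx1 4.27-fold lower, at 60.3 against 258 UPM (-2.10, -2.26 to -1.93). Prrx2 lay just inside the limit, at 18.2 against 36.4 UPM (-0.997, -1.37 to -0.61). It passed 2-fold with stricter gates (-1.07) and without haemoglobin and mitochondrial UMIs (-1.0003). Mesenchymal genes were lower in myoblasts in 5 of 14 and higher in none, led by Pdgfra (-1.63), Col1a1 (-1.46) and Col1a2 (-1.40). The E11.5 dermomyotome gate held a mix of cells, described below, part of which held En1, Pdgfra and Col1a1. Its part in these E11.5 differences was not tested, so they are not read as steps from progenitor to myoblast.

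Myocytes of E11.5 differed from myoblasts in 4 of 8, against 14.2% of 10742 genes with a median log2 ratio of -0.15. Snai1 was 3.34-fold higher (87.8 against 26.3 UPM, log2 ratio 1.74, 1.53 to 1.95) and Zeb1 2.80-fold higher (181 against 64.7 UPM, 1.49, 1.35 to 1.62). Twist1 and Prrx1 were 2.57-fold and 2.60-fold lower, at 73.3 against 188 UPM and 23.2 against 60.3 UPM. Without Scrublet calls the log2 ratio of Prrx1 went from -1.38 to -1.97, and that of Twist2 from -0.83 to -1.48, past 2-fold. Zeb2 lay at 0.62 and Snai2 at -0.53. Mesenchymal genes were lower in myocytes in 8 of 14 measured, among them Postn (-2.09) and Pdgfrb (-1.98), and higher in 2, of which Tagln, an actin-binding protein also of early muscle, had 4.16. Other transition factors were lower in 4 of 7, among them Tcf15 (-1.56).

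The 522 myocytes were ranked by the share of their UMIs in sarcomere genes and divided into 3 groups of 174. Of the 8 factors 6 were highest in the middle group. The share of all genes highest there was not counted, here or without Scrublet calls. Such numbers are thus not read as a trait of the factors. In 3 of the 6, Snai1, Snai2 and Zeb1, the interval of the middle group lay clear of the other groups. Snai1 stood at 68.0, 129 and 71.4 UPM from the lowest to the highest group, Snai2 at 15.8, 29.4 and 8.19, and Zeb1 at 165, 253 and 127 UPM. Zeb2 stood at 115.1, 157 and 134.5 UPM, Prrx1 at 25.3, 33.3 and 9.90, and Twist2 at 6.98, 13.1 and 2.73. Twist1 was highest in the lowest group, at 101, 77.3 and 32.4 UPM, and Prrx2 in the highest, at 12.2, 15.0 and 23.9 UPM. Myog, the factor of terminal differentiation, stood at 941, 3998 and 2600 UPM over the same groups, and Cdh15, the gene of M-cadherin, at 169, 314 and 310 UPM. Acta1, a gene of the list that ranked the cells, stood at 17.8, 291 and 7036 UPM.

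Scrublet calls made up 5.17%, 14.9% and 2.87% of these groups. Leaving them out, a choice made after the data were seen, left 4 of 8 factors highest in the middle group, with Snai1, Zeb1 and Zeb2 clear of both other groups. Snai1 then stood at 67.5, 140.2 and 71.8 UPM, Zeb1 at 168, 282 and 128 UPM, and Zeb2 at 118, 172 and 138 UPM. Snai2 was still highest there, at 14.3, 23.6 and 7.26 UPM, with the first interval overlapping. The middle level of Prrx1 went from 33.3 to 3.31 UPM, that of Twist2 from 13.1 to 2.89 UPM and that of Twist1 from 77.3 to 27.7 UPM, so that Twist1 stood at 97.0, 27.7 and 27.9 UPM.

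**Figure D4:**
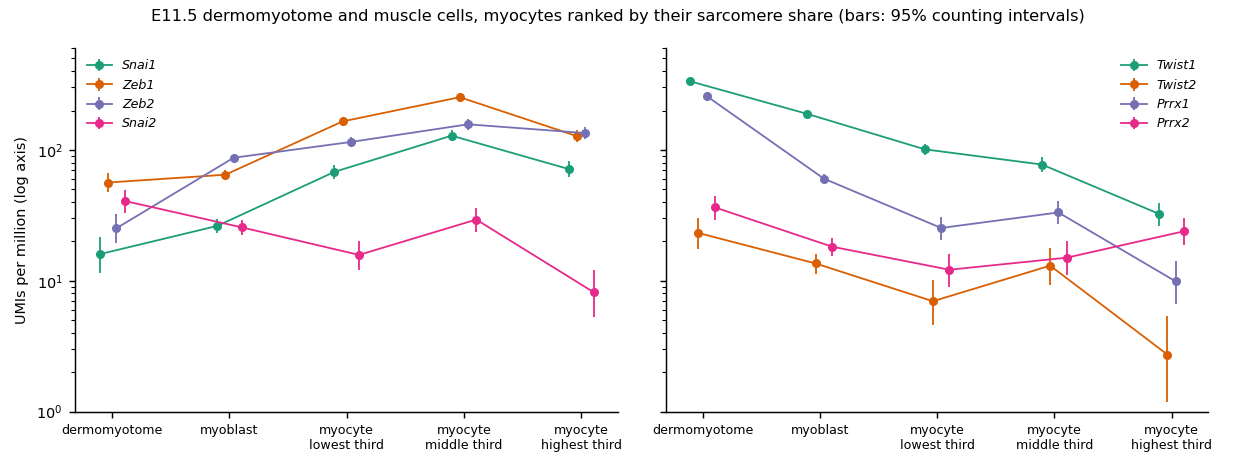
Levels in E11.5 dermomyotome, myoblasts and 3 equal groups of myocytes ranked by their share of sarcomere UMIs, in UMIs per 1000000 on a log axis with 95% counting intervals. All cells of the gates are shown, Scrublet calls included. Of the myocyte groups the middle one is highest for 6 of 8 factors, among them Snai1 and Zeb1 (129 and 253 UPM), and Twist1 goes from 334 UPM in dermomyotome to 32.4 UPM in the highest group. The share of all genes highest in the middle group was not counted.

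Within a class the factors were not all spread evenly over cells. Cells were thinned to 5000 UMIs, and the share with a UMI was set beside the share that an even spread of the same mean would give. In E9.5 sclerotome 92.3% of cells held Twist1, against 94.7% for an even spread. In E11.5 sclerotome the shares were 74.8% and 91.1% for Twist1 and 37.2% and 57.0% for Prrx1. Prrx1 was uneven in E11.5 dermomyotome (53.2% and 74.3%) and En1+ Pdgfra+ cells (64.6% and 88.2%) as well. In E11.5 sclerotome Zeb1 had shares of 19.1% and 19.95%, and Twist2 of 39.6% and 44.6%. The variance of thinned counts over their mean, which is 1 for an even spread, was 2.76 for Prrx1 and 1.10 for Zeb1 in E11.5 sclerotome. It was 1.90 for Zeb2 and 1.56 for Snai1. Both measures also depend on the mean, which was 0.844 UMIs per thinned cell for Prrx1, 0.223 for Zeb1, 0.104 for Zeb2 and 0.319 for Snai1. Factors of unlike level are therefore not ranked by them.

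**Figure D5:**
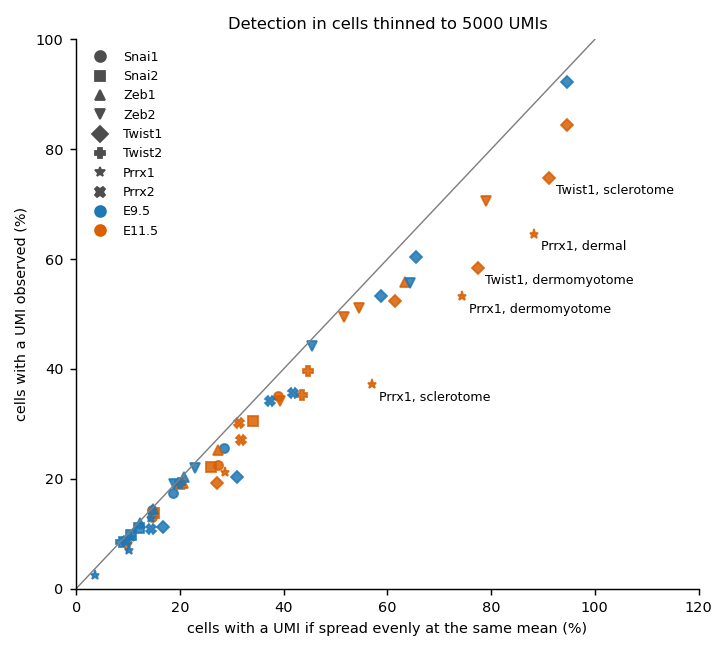
Share of thinned cells with a UMI of a factor (vertical axis, percent) against the share an even spread of the same mean gives (horizontal axis, percent), for each class and stage with at least 50 UMIs after thinning. Symbols are genes, blue is E9.5 and orange E11.5. Points on the line are evenly spread, and the named points, Prrx1 and Twist1 of E11.5 mesenchymal classes and dermomyotome, lie farthest below it. The distance from the line also depends on the mean of the factor.

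Prrx1 and Prrx2 occurred together in E11.5 sclerotome more often than independence gives, in 226 cells against 157 (ratio 1.44, 1.25 to 1.64), and Prrx1 with Twist1 in 503 against 434 (1.16, 1.06 to 1.27). In En1+ Pdgfra+ cells the same pairs gave ratios of 0.98 (0.79 to 1.21) and 1.07 (0.95 to 1.205). These intervals take the cells with both genes as a free count. They are too wide for genes held by most cells and do not decide on independence. There Twist1 was held by 90.3% of the cells with Prrx1 and 73.8% of those without, and Prrx2 by 29.8% and 31.1%. Snai1 with Snai2 and Zeb1 with Zeb2 gave 0.94 (0.73 to 1.18) and 1.11 (0.72 to 1.64) in E11.5 sclerotome. The 580 thinned sclerotome cells with a Prrx1 UMI, a split chosen after the data were seen, held Twist1 at 670 UPM against 349 UPM in the 979 without, and Snai1 at 41.4 against 70.7. They held Sox9, the regulator of cartilage, at 216 against 456 UPM, Pax9 at 66.4 against 160.1 UPM, Foxc2 at 35.5 against 78.1 UPM and Col1a1 at 239 against 142 UPM. Scrublet calls were 5.17% and 3.88% of these cells, and median depth was 12504 and 12196 UMIs.

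The E11.5 dermomyotome was also mixed. Of 156 thinned cells, 56 held both Prrx1 and Twist1 and 38 neither. Pax3 stood at 188 UPM in the former and 204 UPM in the latter, and Pax7 at 11.0 and 78.1 UPM. Col1a1 stood at 365 against 72.4 UPM, Zic1 at 220 against 62.9 UPM, Snai2 at 56.9 against 22.9 UPM and Zeb2 at 12.0 against 36.2 UPM. Scrublet calls made up 10.7% and 2.63% of them, and their part in the difference was not tested. En1 was held by 66.1% of the cells with both factors and 36.8% of those with neither, and Pdgfra by 69.6% and 26.3%. The dermomyotome gate does not exclude these genes. It asks for at least 2 Pax3 or Pax7 UMIs, where the gate of En1+ Pdgfra+ cells allows at most 1.

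Over the 12 profiles of class and stage with at least 50 cells, Snai2, Twist1, Twist2 and Prrx1 had similar profiles and Zeb2 an opposite one. Pearson correlations of log2(UPM + 5) between Snai2 and Twist1, Twist2 and Prrx1 were 0.81, 0.85 and 0.87, and Twist1 with Prrx2 gave 0.87. Zeb2 gave -0.94 with Snai2, -0.81 with Twist1 and -0.85 with Prrx1. Snai1 and Zeb1 had no correlation above 0.51 with another member, and 0.28 with each other. The profiles share 2 libraries, so these values are descriptions. Of 7870 genes ranked, those most like each factor were Nfatc4 (0.96) for Snai2, Eva1b (0.98) for Twist1, Fli1 (0.95) for Twist2, Cers6 (0.97) for Prrx2, the predicted gene Gm26523 (0.97) for Prrx1, Ilkap (0.94) for Zeb1, Syngr2 (0.91) for Zeb2 and Aamp (0.89) for Snai1.

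Epithelial genes gave little to compare with, because 4 or fewer of the 16 listed reached 50 UMIs in any comparison. Dsp, the gene of desmoplakin, was the clearest, with 104 UMIs in E9.5 dermomyotome and 65 in sclerotome (log2 ratio of sclerotome over dermomyotome -1.48, -1.95 to -1.02), and with 1 UMI in each of these classes at E11.5. Epcam was higher at E11.5 in sclerotome (log2 ratio 2.57, 183 against 24 UMIs). All 14 E proteins, Id proteins and corepressors measured were within 2-fold in the stage comparisons of myoblasts and crest and in the comparison of myocytes with myoblasts. Of all genes 14.6%, 17.0% and 14.2% were past it in these. In the stage comparisons of dermomyotome, sclerotome and neural tube 12 of 14, 11 of 15 and 13 of 15 were within 2-fold. There 16.3%, 20.8% and 19.5% of all genes were past it.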

How the data were processed

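Single-cell RNA sequencing of somites from 3 pooled embryos was done in 1 library at E9.5 and 1 at E11.5. According to the methods, reads were aligned to mm10 with Cell Ranger count 3.0.1. The deposited values are whole UMI counts per gene and barcode, made by the authors without normalization, and the matrices deposited hold cells outside the authors' limits on genes per cell. Genes were matched by symbol.

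As in the methods, cells with at least 200 and fewer than 6500 genes and under 15% mitochondrial UMIs were kept, 9851 and 9595 with medians of 12462 and 12479 UMIs. Cells meeting several gates (71 and 17) were left out of the classes. The gates put 46.7% and 40.5% of kept cells in 1 class. Counts were summed per class. Intervals are exact Poisson intervals for levels, exact intervals of 2 Poisson counts for ratios and Clopper-Pearson intervals for shares, all at 95%. A class without a UMI was set to 3 counts for a ratio. Ratios were tested on simulated data. Scrublet in scanpy 1.11.5, given 8% expected doublets, was used for an alternative. Alternatives were stricter gates, no Scrublet calls, at least 1000 genes, no cell filter, a mean over cells, no haemoglobin or mitochondrial UMIs and a minimum of 10 UMIs. Upstream sequences are from RefSeq on GRCm38.p6 and gene positions from GENCODE on GRCm38. Python 3.11.15, numpy 2.4.6, scipy 1.17.1, pandas 2.3.3 and matplotlib 3.10.9 were used.

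The members, gates and gene lists were chosen with earlier results of these data known. Named genes are the 8 members, the 3 genes of each other list with the widest ratio past 2-fold in a comparison, the 3 genes most like each member over the profiles, and gate and marker genes. Genes named outside this rule (in the splits of cells, Cdh1, Cdh2, Epcam, Vim, Cdh15 and Acta1) were chosen after their values were seen.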

Additional observations from a re-analysis of the deposited data

Results flagged for a closer look

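Under the contrast of E11.5 with E9.5, 4 factors had opposite directions in 2 classes, with counting intervals on either side of 0 and at least 1 class past 2-fold. The difference between classes was not tested in any of them. The share of all genes with such opposite directions was not counted, so the number 4 is not read as a trait of these factors. Zeb1 had a log2 ratio of 1.04 in neural tube and -0.30 in sclerotome, a gap of 1.34. Zeb2 had 0.97 in myoblasts and -1.28 in sclerotome, a gap of 2.25. Twist1 had 0.82 in dermomyotome and -2.38 in neural tube, a gap of 3.20, the latter on 11 UMIs at E11.5. Prrx1 had 3.06 in dermomyotome and -0.80 in crest, a gap of 3.86. Without cells holding somite gene UMIs Prrx1 in crest stood at 2.52 UPM on 10 UMIs at E9.5 and 6.54 UPM on 28 at E11.5. Those are too few UMIs for a comparison, so no direction of Prrx1 is given for these cells.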

How the results depend on the processing

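No paired analysis was possible because each stage is 1 library. Under 7 alternatives the number of factors past 2-fold stayed within 1.5 times in all comparisons but 2. In myoblasts between the stages it was 1 and became 2 without Scrublet calls, and with a mean over cells, through Zeb2 (1.06 and 1.11), and with no filter on cells, through Prrx1 (1.07). In crest over neural tube at E9.5 it was 2 and became 4 without Scrublet calls. Single ratios moved out of their counting interval in 13 of 96 cases without Scrublet calls and in 9 or fewer under each of the others, and no ratio past 2-fold changed sign under these. Calls also ended for Snai1 in sclerotome over dermomyotome at E9.5 with stricter gates (0.99), for Twist2 between the stages in neural tube with a mean over cells (0.98), and for Snai1 and Twist1 in crest over neural tube at E11.5 with no filter on cells (0.74 and 0.60). Twist2 between the stages in neural tube also had too few UMIs for a comparison once Scrublet calls were left out. With stricter gates calls began, among others, for Prrx2 in myoblasts over dermomyotome at E11.5 (-0.997 to -1.07). The same held for Prrx1 in En1+ Pdgfra+ cells over dermomyotome (0.66 to 1.08). Prrx1 between the stages in neural tube, not past 2-fold, went from -0.55 to 0.66 with no filter on cells. An alternative chosen after seeing the data left out crest and neural tube cells with a Meox1, Tcf15, Pax1 or Pax9 UMI, and 2 ratios past 2-fold changed sign: Twist1 between the stages in crest from -1.55 to 0.46, and Prrx1 in crest over neural tube at E9.5 from 1.15 to -1.35. In the E9.5 crest cells that were left, Twist1 and Prrx1 lay within the range of red blood levels. The Twist1 intervals of E9.5 and E11.5 crest then overlapped, so its ratio of 0.46 gives no clear direction. Shares of cells with a UMI depend on depth and moved in 91 of 96 cases on thinning to 5000 UMIs. With 99 neural tube cells at E11.5, 6 of the 8 factors had 13 or fewer UMIs there.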
